A study of Rattus norvegicus with 26 samples.

Results

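The genes described here are 10 that encode the calcium release machinery of the skeletal muscle triad: the ryanodine receptors Ryr3 and Ryr1, the calsequestrins Casq1 and Casq2, Trdn, Asph, the junctophilins Jph1 and Jph2, Cacna1s and Fkbp1a. They were chosen by symbol, as a family, with earlier results of these data known, and their abundance across the 4 groups was part of that choice. Their group differences are therefore given as a description, and a p beside a member is its value in the test of the whole table, not independent support. All 10 were among the 34034 genes of the count table, and all 10 passed the filter on low counts into the 10064 genes tested. Their counts ran from 69 to 7594 per library, so the filter kept none of them because of 1 group.

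Soleus, the slow postural muscle of the calf, came from aged female rats of generation 44 of 2 lines, one selectively bred for low running capacity (LCR) and the other for high running capacity (HCR). The groups were 8 sedentary LCR and 8 sedentary HCR rats kept without a wheel, and 5 running LCR and 5 running HCR rats that were pair-housed with a running wheel for more than 5 months. Transcripts were counted near their 3′ ends, and abundance is given as CPM, a gene's counts divided by the megacounts of its library, with the SD over rats. The lines differ in their whole inherited background, 2 runners shared each wheel, and the runners were a cohort of their own. Cage, cohort and running therefore cannot be told apart, and no label names a litter or a batch. In whole muscle, fewer cells of a type and less RNA per cell cannot be told apart either. Each library was taken as 1 rat, and p-values measure the spread between these libraries.

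In a muscle fibre the T-tubule carries the action potential inwards to triads, where it lies against the sarcoplasmic reticulum (SR). The voltage sensor in the T-tubule, whose pore subunit is Cacna1s, opens the release channel Ryr1 in the SR by direct contact, and calcium leaves the SR to start contraction. Ryr3 is a second release channel, mostly outside that direct contact, known from developing muscle and from some adult muscles. Calsequestrins store calcium in the SR lumen, triadin (Trdn) and junctin, a product of Asph, anchor them to the channel, junctophilins hold the membranes together, and Fkbp1a is the small immunophilin bound to Ryr1.

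The titles of 2 running libraries, running HCR 5 and running LCR 5, begin with the other line than their genotype and description, and both were kept under the genotype. The check used the 3 named genes with an average of at least 2 on the log2 CPM scale and the smallest p between the lines in a fit of the 16 sedentary libraries alone, and Ryr3 itself was among them. Ackr4, a chemokine scavenger receptor, stood at 0 to 2.01 CPM in sedentary LCR and 6.95 to 11.04 CPM in sedentary HCR. It read 10 CPM in running HCR 5 and 0.784 CPM in running LCR 5. Acad11, an acyl-CoA dehydrogenase, stood at 3.00 to 7.36 CPM in sedentary LCR and 12.7 to 22.4 CPM in sedentary HCR. It read 15.5 CPM in running HCR 5 and 1.57 CPM in running LCR 5. In the runners with undisputed titles the lines overlapped: Ackr4 ran from 0 to 3.09 CPM in LCR and from 1.58 to 10.2 CPM in HCR, and Acad11 from 2.27 to 7.39 CPM in LCR and from 5.51 to 18.8 CPM in HCR. Ryr3 stood at 68.2 to 119 CPM in sedentary LCR and 42.8 to 58.7 CPM in sedentary HCR. It read 83.6 CPM in running HCR 5 and 96.5 CPM in running LCR 5. Its runners with undisputed titles ran from 82.2 to 103 CPM in LCR and from 48.0 to 83.0 CPM in HCR. Ackr4 and Acad11 therefore lean to the genotype in these 2 libraries, outside the range of the undisputed runners of the title's line. Ryr3 leans to the genotype in running LCR 5, above all undisputed HCR runners. In running HCR 5, at 83.6 CPM, Ryr3 leans to the line of its title by a small margin. The highest undisputed HCR runner read 83.0 CPM. The check read 3 genes without a test and does not settle the line of these libraries. Values without these libraries are given for Ryr3, Ryr1 and Trdn and for genes of the other lists that passed with the runners.

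Total counts ran from 1.1 to 2.52 megacounts per library. All 6 slow-fibre genes of the marker list were present in every group, with a summed level of 23217 to 34977 CPM over all libraries, in a muscle labelled soleus. The summed level of the fast-fibre genes had the higher median in LCR, in sedentary and in running rats, with overlapping sedentary ranges. It ran from 5568 to 10973 CPM in sedentary LCR (median 7900), from 1465 to 8634 CPM in sedentary HCR (median 4950), from 4150 to 10041 CPM in running LCR (median 7037) and from 1700 to 2869 CPM in running HCR (median 2691), and of the 8 genes listed 7 were matched in the table, none of them at 0 in a whole group. Between the sedentary lines 0 of these 7 genes passed (edgeR). On the log2 scale Tnni2, which encodes fast troponin I, was at -1.11 there (SE 0.33, adjusted p = 0.0762), and the fast myosin Myh2 was at -1.08 (SE 0.44, adjusted p = 0.206). Between the running lines 3 of 7 passed and were lower in HCR: Tnni2 (log2 fold change -2.51, SE 0.46, adjusted p = 0.00599, edgeR), Myh2 (-2.86, SE 0.59, adjusted p = 0.0207) and fast troponin T, Tnnt3 (-1.98, adjusted p = 0.00881). The other 4 did not: Tnnc2 stood at -0.94 (adjusted p = 0.105), Myh1 at -0.73 (adjusted p = 0.853), Myh4 at 0.96 (adjusted p = 0.798) and Actn3 at -0.09 (adjusted p = 0.987). Without the conflicting libraries 1 of these 3 calls was kept, Tnnt3 (-1.99, adjusted p = 0.0353), while Tnni2 had -2.34 (SE 0.51, adjusted p = 0.0508) and the Myh2 value was -2.73 (SE 0.66, adjusted p = 0.0902). Averaged over activity Tnni2, Myh2, Tnnt3 and Tnnc2 passed, with and without these libraries. The slow counterparts Tnni1 (0.19, adjusted p = 0.617) and Myh7 (0.06, adjusted p = 0.949) did not pass between the running lines. The summed immature or denervated fibre markers ran from 560 to 2595 CPM in sedentary LCR and from 534 to 1596 CPM in sedentary HCR, and smooth muscle markers from 116 to 304 CPM and from 103 to 285 CPM. Median summed levels in sedentary LCR and HCR were 106 and 96.2 CPM for endothelial markers, 351 and 392 CPM for fibroblasts, 131 and 148 CPM for macrophages, 105 and 92.3 CPM for Schwann cells and 103 and 159 CPM for adipocytes, with overlapping ranges. The part of these cell types in the group differences of the triad genes was not tested. Only the fast-fibre level is set against the members, within groups, further below.

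The stretches before the annotated starts of both ryanodine receptor genes are shown because these channel genes differed in how far they separated the lines. RefSeq's tables for the assembly GRCr8 hold windows for 8 of the 10 genes, 9 windows in all. Ryr3 has 2 of them, and counts from the 3′ end do not show which start was used. On the minus strand the second start has the lower coordinates, so it lies downstream of the first. Its window can therefore hold sequence transcribed from the first start, and it is not a like stretch to the other windows. The counts were made on another assembly, so these coordinates are not those of the count table. The 250 bases before each start are written 5′ to 3′ on the gene's strand, with each E-box, CANNTG (N is any base, and both strands read the same), in capitals.
Ryr3, first start, chr3:120433466-120433715, minus strand: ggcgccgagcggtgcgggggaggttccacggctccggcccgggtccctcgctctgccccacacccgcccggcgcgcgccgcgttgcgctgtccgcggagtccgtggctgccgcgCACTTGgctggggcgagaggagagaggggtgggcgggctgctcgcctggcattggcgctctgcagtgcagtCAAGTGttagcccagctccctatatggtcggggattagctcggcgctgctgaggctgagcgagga
Ryr3, second start, chr3:120157572-120157821, minus strand: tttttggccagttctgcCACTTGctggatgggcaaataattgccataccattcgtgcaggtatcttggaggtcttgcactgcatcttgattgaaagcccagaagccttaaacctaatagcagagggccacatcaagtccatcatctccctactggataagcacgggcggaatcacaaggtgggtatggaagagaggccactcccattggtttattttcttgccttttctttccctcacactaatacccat
Ryr1, chr1:93551306-93551555, minus strand: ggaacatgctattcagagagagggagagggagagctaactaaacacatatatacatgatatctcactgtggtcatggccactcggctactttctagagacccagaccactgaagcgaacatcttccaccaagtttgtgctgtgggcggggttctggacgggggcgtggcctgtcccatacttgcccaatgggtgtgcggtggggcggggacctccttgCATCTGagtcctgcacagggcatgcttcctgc
The first Ryr3 window held 2 E-boxes and 2 GC boxes (GGGCGG, either strand) at 72.4% G and C, a higher share than 94.3% of the 33469 windows of this length. The second held 1 E-box and 1 GC box at 47.2%, and the Ryr1 window 1 E-box and 2 GC boxes at 55.6%. Over all windows 65.5% held an E-box, 30.5% a GC box and 12.9% a TATA box (TATAAA, either strand), with a median of 51.2% G and C. None of these 3 windows held TATAAA. Among the other members, Casq1, Casq2, Cacna1s and Fkbp1a had 2 E-boxes each and Trdn and Jph2 had 0. A match is a run of letters, and these data do not say whether a factor binds there.

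Ryr3, the second release channel, was the member whose sedentary lines lay wholly apart. In sedentary LCR it ran from 68.2 to 119 CPM with a median of 106 CPM, and in sedentary HCR from 42.8 to 58.7 CPM with a median of 56.7 CPM. All 8 sedentary HCR rats lay below all 8 sedentary LCR rats. The lowest LCR value, 68.2 CPM in sedentary LCR 4, stood apart from the next, 86.6 CPM in sedentary LCR 3, and from the other 6, which lay at 103 CPM or above. The group means were 53.9 ± 5.78 CPM in HCR and 101 ± 16.4 CPM in LCR (SD, n = 8 each), a change of -48.3% in HCR. By edgeR's quasi-likelihood test with Benjamini-Hochberg adjustment the log2 fold change was -0.95, with an SE of 0.11 and an adjusted p of 1.11e-06. It ranked 4 by p among the 10064 genes. In this comparison 1 of the 10 members passed, against 2.72% of all genes tested. All values of 2 groups lay apart in 0.497% of all genes. Ryr3 kept its call in all 26 refits that left out 1 library (log2 fold change from -1.02 to -0.91) and under the 8 other settings tried.

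Among runners, Ryr3 stayed near the sedentary level in LCR and stood mostly above it in HCR. The running LCR rats stood at 94.6, 82.2, 103, 98.4 and 96.5 CPM in replicates 1 to 5, all inside the range of sedentary LCR. The running HCR rats stood at 83.0, 48.0, 66.2, 63.8 and 83.6 CPM. Of these, 4 lay above all 8 sedentary HCR rats, and 1, running HCR 2, lay within their range. Against the LCR runners, 3 HCR runners lay below all 5, while running HCR 1 and 5 lay above the lowest LCR runner. CPM leaves out the TMM scaling factors of the test, which were 1.07 for running HCR 1 and 1.02 for running LCR 2. The order of rats this close can therefore depend on the scaling. The order of the group means, from high to low, was sedentary LCR (101 CPM), running LCR (94.97 ± 7.82 CPM, n = 5), running HCR (68.9 ± 14.9 CPM, n = 5) and sedentary HCR (53.9 CPM). Sedentary and running LCR did not differ beyond their spread, and the next neighbours overlapped in part.

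**Figure D1:**
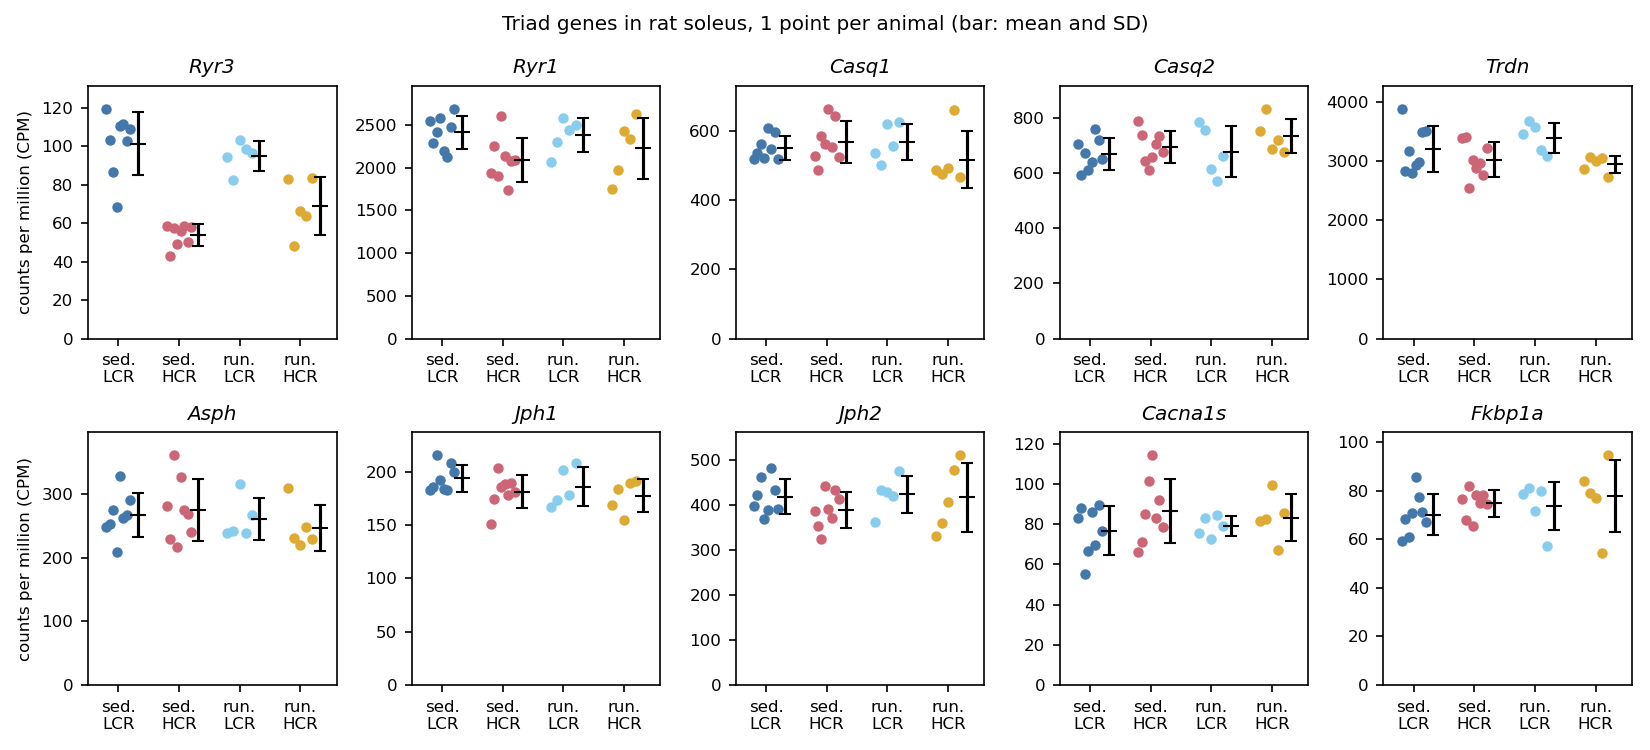
Abundance of the 10 triad genes in CPM (vertical axes, from 0) in each of the 26 rats, by group, with bars for the mean and SD. Ryr3 shows all 8 sedentary HCR rats below all 8 sedentary LCR rats, with the HCR runners from 48.0 to 83.6 CPM, while the other 9 genes overlap between the sedentary groups.

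None of the members passed between the running lines (edgeR), 1 had an unadjusted p under 0.05, and DESeq2 and voom also called 0, against 0.626% of all genes. That member was Ryr3, at -0.47 on the log2 scale (SE 0.14, adjusted p = 0.157), with an adjusted p of 0.139 without the 2 conflicting libraries and 0.902 with the line of their titles. Over the 26 refits without 1 library its adjusted p ran from 0.06 to 0.424. Averaged over sedentary and running rats, Ryr3 stood at -0.71 in HCR against LCR (SE 0.09, adjusted p = 2.00e-06), and without the conflicting libraries at -0.75 (adjusted p = 2.92e-06). It was again the 1 member called, against 3.75% of all genes, and kept the call in all 26 refits and under the 7 other settings.

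Wheel running was then set against no wheel within each line. In LCR, 0 of the 10 members passed (edgeR), 0 had an unadjusted p under 0.05, and DESeq2 and voom called 0. Among all genes 0% passed and 612 had an unadjusted p under 0.05. Ryr3 stood at -0.08 in LCR runners (SE 0.12, adjusted p = 0.962). In HCR runners it stood 32.5% above sedentary HCR, or 0.41 on the log2 scale (SE 0.13, adjusted p = 0.177), which did not pass. It was the 1 member there with an unadjusted p under 0.05, and 0 members passed by edgeR, DESeq2 or voom, against 0.0994% of all genes. Without the conflicting libraries the value was 0.30 (adjusted p = 0.44), and over the refits without 1 library it ran from 0.30 to 0.53. The difference between the lines' responses was 0.48 for Ryr3 (SE 0.18, 95% interval 0.13 to 0.84, adjusted p = 0.835), and 0.41 without the conflicting libraries (adjusted p = 0.969). No member passed that test by any of the 3 tools, 1 had an unadjusted p under 0.05, and among all genes 0% passed and 592 had an unadjusted p under 0.05. These comparisons share sedentary or running rats with those above, so their values are not independent of them.

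Ryr1, the channel opened by the voltage sensor, showed a smaller line difference that did not pass. It ran from 2126 to 2687 CPM in sedentary LCR (median 2444) and from 1737 to 2601 CPM in sedentary HCR (median 2083). Of the HCR rats 5 lay below all LCR rats, and sedentary HCR 4, at 2601 CPM, lay above all but 1 of them. Means were 2414 ± 197 CPM and 2091 ± 261 CPM (SD, n = 8 each), with a log2 fold change of -0.23 (SE 0.11, 95% interval -0.45 to -0.02, adjusted p = 0.293). In runners Ryr1 stood at 2069, 2299, 2580, 2446 and 2503 CPM in LCR replicates 1 to 5 and at 1749, 1974, 2431, 2338 and 2633 CPM in HCR replicates 1 to 5. These groups overlapped across most of their range (log2 fold change -0.09, SE 0.14, adjusted p = 0.922, and -0.14, adjusted p = 0.905, without the conflicting libraries).

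Within each rat, Ryr3 can be set against Ryr1 as its share of the counts of both genes. The share depends on how well each 3′ end is captured, so it serves to compare rats, not molecules of the channels. In sedentary rats it was 4.06 ± 0.773% in LCR and 2.56 ± 0.508% in HCR (SD, n = 8 each). In runners it was 3.85 ± 0.335% in LCR and 3.06 ± 0.861% in HCR (n = 5 each). The sedentary ranges, 2.58 to 4.98% and 1.86 to 3.25%, overlapped, unlike those of Ryr3 itself. For the calsequestrins, the share of Casq2 in the counts of Casq1 and Casq2 was 54.8 ± 2.33%, 55.0 ± 3.79%, 54.2 ± 5.06% and 58.8 ± 4.25% in the same order. For the junctophilins, the share of Jph1 was 31.8 ± 2.10%, 31.9 ± 3.19%, 30.5 ± 1.36% and 30.2 ± 3.33%. Both shares differed between groups by about as much as between rats of a group.

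The voltage sensor and the Ryr1-bound immunophilin showed no passing difference. Cacna1s, the pore subunit of the sensor, had group means of 76.9 ± 12.2 CPM in sedentary LCR, 86.5 ± 15.8 CPM in sedentary HCR, 79.1 ± 5.05 CPM in running LCR and 83.2 ± 11.6 CPM in running HCR. Its sedentary line difference was 0.14 on the log2 scale (SE 0.11, 95% interval -0.09 to 0.36, adjusted p = 0.617). Fkbp1a, whose product is also known as FKBP12, had means of 70.2 ± 8.58, 74.8 ± 5.55, 73.7 ± 9.91 and 77.8 ± 14.8 CPM in the same order. Among runners, running HCR 5 read 94.5 CPM and running LCR 5 57.2 CPM, near opposite ends of the range, and these are the rats whose titles conflict. The running line value of Fkbp1a was 0.08 by genotype and -0.20 with the line of the titles, and neither passed.

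The genes of the SR lumen and junctional membrane stayed within their spread between the sedentary lines. Casq1, the calsequestrin of fast fibres, averaged 552 ± 35.4, 570 ± 60.7, 569 ± 53.4 and 518 ± 82.0 CPM in sedentary LCR and HCR and in running LCR and HCR. In running HCR 4 it stood at 663 CPM, while the other 4 HCR runners lay from 467 to 493 CPM, below all 5 LCR runners. Casq2, the calsequestrin of heart and slow fibres, averaged 670 ± 56.4, 695 ± 58.1, 679 ± 92.2 and 736 ± 62.7 CPM. Asph, which encodes junctin along with an aspartyl hydroxylase, averaged 267 ± 34.6, 276 ± 48.9, 261 ± 33.1 and 248 ± 36.0 CPM. Counts near the 3′ end do not separate the Asph products.

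Trdn, the triadin gene, was the other member whose groups lay apart, and this was between the running lines. The LCR runners stood at 3458, 3684, 3589, 3187 and 3091 CPM in replicates 1 to 5 and the HCR runners at 2868, 3077, 3009, 3056 and 2736 CPM. All 5 HCR runners lay below all 5 LCR runners, by a gap between 3077 and 3091 CPM. In 1.63% of all genes these groups lay apart. The fitted log2 fold change was -0.20 (SE 0.11, adjusted p = 0.659) and did not pass, nor did it without the conflicting libraries (-0.21, adjusted p = 0.784). The sedentary rats overlapped, with 3207 ± 390 CPM in LCR and 3028 ± 300 CPM in HCR. Averaged over sedentary and running rats Trdn stood at -0.16 (SE 0.07, adjusted p = 0.267).

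The junctophilins, which tether the T-tubule to the SR, overlapped in every comparison. Jph1 averaged 194 ± 12.7, 182 ± 15.3, 186 ± 18.2 and 178 ± 15.7 CPM in sedentary LCR and HCR and in running LCR and HCR. Jph2 averaged 418 ± 39.01, 389 ± 40.2, 424 ± 40.8 and 417 ± 76.1 CPM. Their sedentary line differences were both -0.13 on the log2 scale (SE 0.08 and 0.11, adjusted p = 0.469 and 0.611).

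Apart from Ryr3, the members' log2 fold changes were small in every comparison. Between the sedentary lines they ran from -0.23 for Ryr1 to 0.14 for Cacna1s, with 95% intervals reaching from -0.45 to 0.36. Between the running lines they ran from -0.20 for Trdn to 0.12 for Casq2, with running in LCR from -0.04 to 0.10 and with running in HCR from -0.10 for Asph to 0.16 for Jph2. These intervals do not show that the genes were equal, but none reached a log2 difference of 0.50. The median over all 10 members was -0.06 between the sedentary lines, against 0.01 for all genes tested, with 5 members above and 5 below 0. Over both lines, running gave a member median of 0.07 against 0.00 for all genes, and 0 members passed by edgeR, DESeq2 or voom, with 0 at an unadjusted p under 0.05. Among all genes 0.378% passed there. The coefficient of variation of a member within a group ran from 4.90% for Trdn to 21.6% for Ryr3, both in running HCR.

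**Figure D2:**
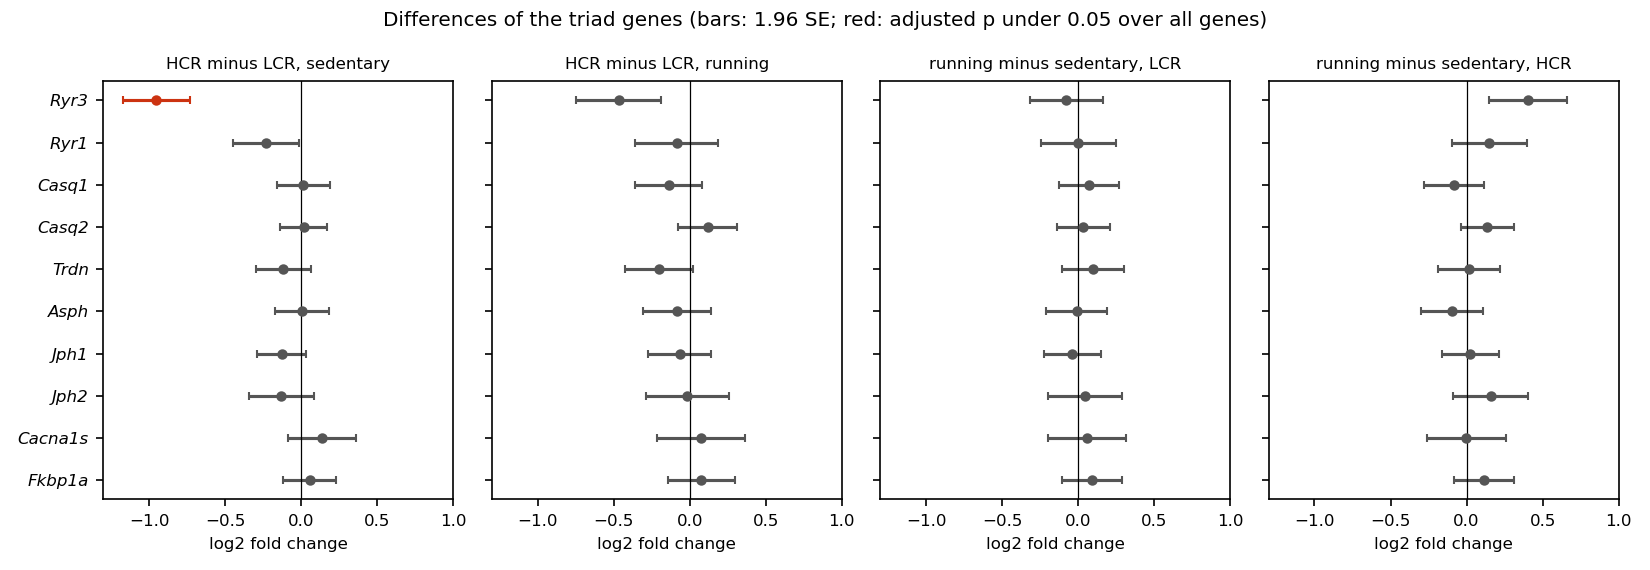
Log2 fold changes (horizontal axes) of the 10 triad genes between the lines in sedentary and in running rats and between running and sedentary rats of each line, with bars for the 95% interval. Ryr3 between the sedentary lines, at -0.95 and drawn in red, is the 1 value with an adjusted p under 0.05 in these 4 comparisons.

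The members were then set beside 42 other genes of calcium release, storage, entry and reuptake, listed by function. All 42 were in the table and 39 were tested. The remaining 3 were at a few counts per library: the heart release channel Ryr2 (means from 0.783 to 4.15 CPM), its immunophilin Fkbp1b (0.330 to 1.02 CPM) and the sensor subunit Cacng1 (0.747 to 1.09 CPM). One Ryr2 value, 13.8 CPM on 25 counts, was in running HCR. The 2 channel genes of skeletal muscle were thus the ryanodine receptors measured at depth here. Cardiac markers were low, and their summed level ran from 55.5 to 223 CPM, with Nppa at 0 in every group but running HCR.

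Between the sedentary lines 0 of the 39 genes passed by edgeR, DESeq2 or voom, and 2 had an unadjusted p under 0.05. The 3 with the smallest p were Bin1, which shapes the T-tubule (log2 fold change -0.22, SE 0.08, adjusted p = 0.125), Mtm1, the phosphatase myotubularin (0.30, SE 0.14, adjusted p = 0.293), and Calr, the SR calcium binder calreticulin (-0.17, SE 0.09, adjusted p = 0.347). Among all genes 2.72% passed and 15.9% had an unadjusted p under 0.05. Of the list, 27 values lay below 0 and 12 above, with a median of -0.06, while over all genes 48.6% lay below 0 and the median was 0.01. Between the running lines 0 passed by any of these tools and 1 had an unadjusted p under 0.05. The smallest p belonged to the calmodulin gene Calm2 (-0.48, SE 0.22, adjusted p = 0.524), the slow-fibre calcium pump Atp2a2 (0.31, SE 0.16, adjusted p = 0.591) and the membrane repair gene Trim72 (-0.24, SE 0.12, adjusted p = 0.591). Without the conflicting libraries these stood at -0.49, 0.26 and -0.19 in the same order, and none passed. Averaged over activity 0 passed by these tools and 5 had an unadjusted p under 0.05. These were led by Bin1 (-0.18, SE 0.06, adjusted p = 0.124), the pump inhibitor Pln (0.40, SE 0.16, adjusted p = 0.168) and Calr (-0.17, SE 0.07, adjusted p = 0.197).

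With running averaged over the lines, 1 gene of the list passed, against 0.378% of all genes. Stim1, the SR calcium sensor of store-operated entry, was higher in runners (log2 fold change 0.26, SE 0.06, adjusted p = 0.0446). The LCR runners stood at 481, 408, 460, 453 and 455 CPM in replicates 1 to 5, and the HCR runners at 438, 401, 463, 565 and 406 CPM. Sedentary LCR ran from 344 to 446 CPM (median 381) and sedentary HCR from 365 to 395 CPM (median 377). All 5 HCR runners lay above all 8 sedentary HCR rats, as in 0.407% of all genes these groups lay apart, and 4 of 5 LCR runners lay above all sedentary LCR rats. The call was near its threshold. It was kept in 4 of the 26 refits without 1 library (adjusted p from 0.0206 to 0.119) and lost without the conflicting libraries (adjusted p = 0.0785). With replicate number as a block it was lost too (log2 fold change 0.23, adjusted p = 0.162). Of the 7 other settings 5 kept the call, among them DESeq2 (adjusted p = 0.00404) and voom (adjusted p = 0.0379).

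Within the lines 0 genes of the list passed by edgeR. In LCR runners the smallest p belonged to Stim1 (0.21, SE 0.09) and the calmodulin gene Calm3 (0.34, SE 0.14), both at adjusted p = 0.715, and to Srl, the SR protein sarcalumenin (0.16, SE 0.09, adjusted p = 0.8295). There 2 had an unadjusted p under 0.05 and DESeq2 and voom called 0. In HCR runners it belonged to Stim1 (0.32, SE 0.09) and Stac3, the adaptor that couples the voltage sensor to Ryr1 (0.36, SE 0.10), both at adjusted p = 0.118, and to the triad kinase Speg (0.32, SE 0.12, adjusted p = 0.229). There 4 had an unadjusted p under 0.05, DESeq2 called 2, Stim1 and Stac3, and voom called 0. Stac3 stood at 412 ± 31.1 CPM in HCR runners (n = 5) and 334 ± 37.8 CPM in sedentary HCR (n = 8). Without the conflicting libraries Stim1 stood at 0.32 (adjusted p = 0.187) and Stac3 at 0.30 (adjusted p = 0.312) in HCR runners. The responses of the lines differed in 0 genes by all 3 tools, with 2 at an unadjusted p under 0.05. They were led by the sodium channel Scn4a (0.83, SE 0.38, adjusted p = 0.843), Stac3 (0.30, SE 0.14, adjusted p = 0.843) and Atp2a2 (0.34, SE 0.20, adjusted p = 0.852).

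**Figure D3:**
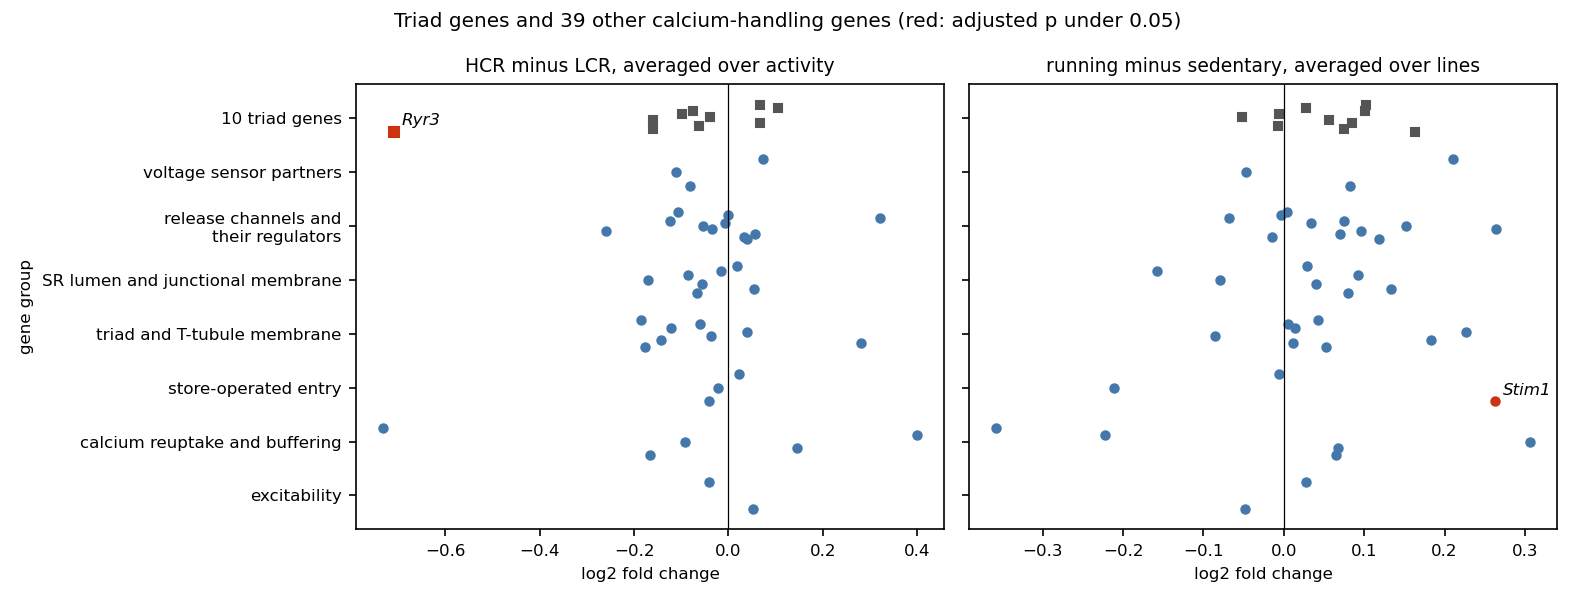
Log2 fold changes (horizontal axes) of the 10 triad genes (squares) and of 39 other calcium-handling genes (circles) by functional group, for the line difference averaged over activity and the running difference averaged over lines. Red marks an adjusted p under 0.05, which Ryr3 reached at -0.71 in the first and Stim1 at 0.26 in the second.

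Since 4 of the 7 tested fast-fibre genes passed between the lines averaged over activity, each member was set against the level of these 7 genes within groups, over 26 libraries after group means were removed. For Ryr3 the relation did not pass (Pearson r = 0.05, permutation p = 0.801, adjusted over the 10 members p = 0.895, Spearman rho = 0.06, permutation p = 0.761). Without the 2 libraries farthest from the median fast-fibre level its r was 0.15, and without the conflicting libraries 0.00. The pooled value holds unlike groups: as a description, r was -0.61 in sedentary LCR and 0.11 in sedentary HCR (n = 8 each). None of the 10 relations passed. The value farthest from 0 was that of Asph (r = 0.51, permutation p = 0.0182, adjusted p = 0.182, rho = 0.49, permutation p = 0.0199, and r = 0.54 without the 2 farthest libraries). Jph1 (r = 0.37) and Casq1, the fast-fibre calsequestrin (r = 0.36), followed, both at a permutation adjusted p of 0.412. Trdn (r = -0.29) and Casq2 (r = -0.27), at permutation adjusted p = 0.412, lay on the negative side. With Myh2 alone in place of the 7 genes, 1 member passed, Jph1 (r = 0.63, permutation adjusted p = 0.004), and Ryr3 stood at 0.33 (permutation adjusted p = 0.123). Ryr1 moved from 0.08 to 0.45 (permutation adjusted p = 0.109) and Jph2 from 0.11 to 0.48 (permutation adjusted p = 0.0677). Asph fell from 0.51 to 0.34. These values of r thus depend on the fast-fibre genes used.

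**Figure D4:**
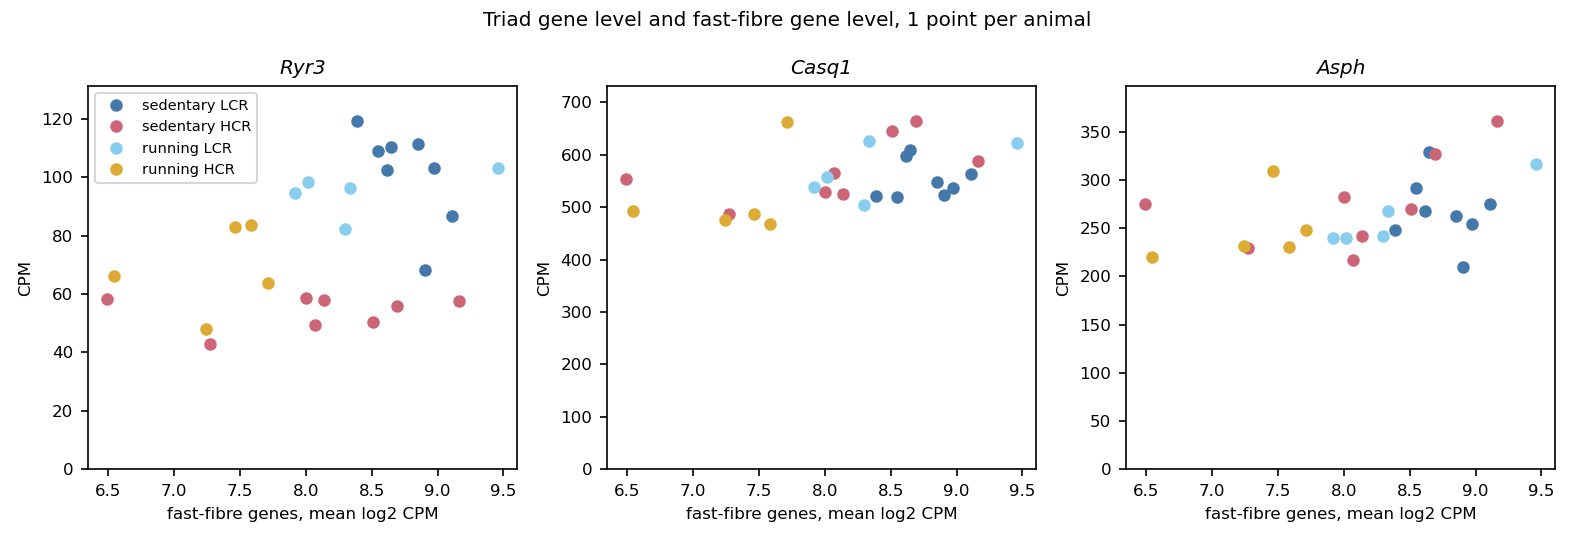
Abundance of Ryr3, Casq1 and Asph in CPM (vertical axes) against the mean log2 CPM of the fast-fibre genes (horizontal axes), with 1 point for each of the 26 rats, coloured by group. The sedentary LCR points for Ryr3 all lie above the sedentary HCR points, and the HCR runners lie at the low end of the fast-fibre axis. This order was known from the values above, and the part of the fast-fibre level in it was not tested.

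Between rats of the same group, some pairs of the triad genes varied together. Of the 45 pairs of members, 35 had a correlation above 0 and 10 below 0, with a median of 0.24, over 26 libraries after group means were removed. By a 2-sided permutation test within groups, 8 pairs passed after adjustment over the 45, all above 0. The highest was Ryr1 with Jph2 (r = 0.76, permutation p = 0.00028, adjusted p = 0.00788, rho = 0.63, permutation p = 0.00312, and r = 0.66 without the 2 libraries farthest from the median of Ryr1). Ryr1 with Jph1 (r = 0.69), Casq1 with Jph1 (0.68) and Jph1 with Jph2 (0.68) had the same permutation adjusted p, 0.00788. Casq1 with Jph2 (0.65) and Casq2 with Trdn (0.61) followed at a permutation adjusted p of 0.0145, and Ryr1 with Trdn (0.58) at 0.0127. By rank Casq2 with Trdn did not pass (rho = 0.46, permutation adjusted p = 0.134). Without the conflicting libraries the 8 correlations ran from 0.54 to 0.69, a setting chosen after the data were seen. These genes share library, depth and the total they are divided by. Pairs of other genes were not examined in this way, so the counts of pairs cannot be read as particular to triad genes.

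Among these pairs were 9 with Ryr3. Their correlations ran from 0.03 with Casq2 to 0.52 with Asph, and that with Ryr1 was 0.22 (permutation adjusted p = 0.65). The 1 that passed was Asph (permutation p = 0.00602, adjusted p = 0.0339, rho = 0.51, permutation p = 0.0108), but its rho did not pass after adjustment (permutation adjusted p = 0.0696). Without the 2 libraries farthest from the median of Ryr3 its r was 0.35, so the relation rests in part on those libraries. Over all other genes tested, those that varied most like Ryr3 within groups were Ano8 (r = 0.69), Aknad1 (0.68), Rpp38 (0.67), Phb1 (0.67) and Mettl13 (0.66), the 5 highest of 10063 and given as a description. None of these 5 passed between the sedentary lines, with log2 fold changes from -0.39 for Rpp38 (adjusted p = 0.434) to 0.16 for Ano8 (adjusted p = 0.732).

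**Figure D5:**
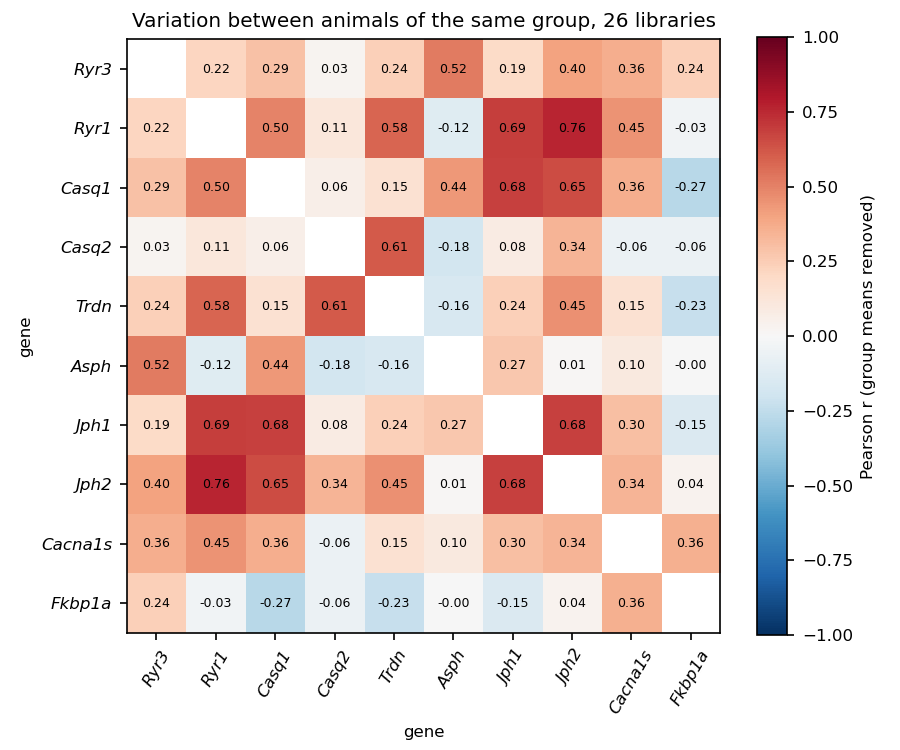
Pearson correlations between the 10 triad genes over 26 libraries after group means were removed, with red for positive and blue for negative values and the value written in each cell. Ryr1, Casq1, Jph1 and Jph2 correlate from 0.50 to 0.76 with each other, while the Ryr3 row reaches 0.52 with Asph.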

How the data were processed

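Soleus libraries of 26 rats were primed from the poly(A) tail (100 ng RNA), per the labels' protocols. The authors deposited whole-number read counts per gene, not normalised. Per the submitters' processing notes, the tools were UMI-tools, cutadapt, STAR, featureCounts, FastQC and MultiQC, with no version, and the build was mRatBN7.2. Molecular identifier collapsing and strand setting are not given in the sources used here, so genes that overlap others are uncertain. Of the table's columns, 0 belonged to no sample. CPM are counts over library totals.

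Counts were tested in R 4.3.3 with edgeR 4.0.16 (quasi-likelihood F test, robust, TMM, filterByExpr, 4 group means, no covariate), with Benjamini-Hochberg adjustment over all 10064 genes at 0.05. The SE was taken as |log2 fold change| / √F, and 95% intervals use the normal multiplier of that SE. Correlations used log2 CPM with a prior count of 2 and 100000 permutations within groups. DESeq2 1.42.0, limma 3.58.1 voom with quality weights and other settings were alternatives. Scripts were tested on simulated data.

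The members, the 42 other calcium genes and the marker lists were chosen with earlier results of these data known. Named were all members, called genes of the 42 or the 3 of smallest p, the 5 genes most like Ryr3, the label check genes, and Myh2, Myh7, Tnni2 and Tnni1.

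Chi-square statistics per degree of freedom over 76 same-group library pairs were 2.23 or more, so none was a duplicate.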

Additional observations from a re-analysis of the deposited data

Results flagged for a closer look

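Casq1 in running HCR 4 stood at 663 CPM, apart from the other 4 HCR runners, the nearest of which was at 493 CPM. The gap was 0.867 of the range of that group. This was 1 of 44 sets of a gene and a group examined in this way, and chance alone sets apart about 1 in 20.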

How the results depend on the processing

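The number of members called was the same under every setting tried: 1 (Ryr3) between the sedentary lines and averaged over activity, and 0 in the other 5 comparisons. Of 2350 recomputed member values 2348 were counted as unchanged. Called values kept their sign and call, and the others stayed uncalled and moved by no more than the spread within groups. The other 2, both Fkbp1a with the line of the titles, stayed uncalled but moved by more. They were -0.20 between the running lines and -0.25 for the difference of responses. Same-numbered rats were not treated as paired: 3 of 33 pairs correlated above 0.1, with a range from -0.22 to 0.26. These values cannot show whether such rats shared a litter, a cage or a processing order. With the replicate block, Ryr3 was called as before, while the other calcium genes called with running averaged went from 1 (Stim1) to 0. That count was also 0 without the conflicting libraries, 0 to 1 over the refits without 1 library and 1 under the remaining 5 settings. DESeq2 called 2 in HCR runners. Averaged over activity, the refits gave 0 to 1, with 1 without running HCR 4 (Bin1). With Myh2 alone as the fast-fibre level 1 member passed. The cause of these changes was not tested. Counts over all genes moved more: with running averaged (38 genes) from 9 to 63 over the refits, 19 with the replicate block and 75 by DESeq2, with running in HCR from 4 to 38 over the refits and 79 by DESeq2, and between the running lines from 32 to 67 and 0 with the line of the titles. At 69 to 7594 counts per library, depth limits Ryr3, Cacna1s and Fkbp1a most.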
